A study of Homo sapiens with 12 samples.

Results

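The actomyosin and contractile cytoskeleton genes were followed in 2 BRAF-mutant melanoma cell lines, COLO858 and MMACSF, that had been treated with vemurafenib, an inhibitor of the mutant BRAF kinase. The list held 38 genes of 23273 in each table, named by symbol for their roles. It was chosen with earlier results of these data known, so its counts and medians set beside all genes are a description. It covered, among others, the actins, the chains and kinase of myosin II, the tropomyosins, the calponins and related actin-binding proteins, the crosslinkers and adhesion linkers, actin turnover and the transcription factor SRF. Of the 38, 37 reached a mean of 1 FPKM (mapped fragments, corrected for transcript length and for the size of the library) in at least 1 group of COLO858 and 35 did so in MMACSF. FLNC was below that level in both lines, and MYL9 and CNN1 were below it in MMACSF, which left 35 genes measured in both lines.

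RNA was taken from cultures of each line, kept in the vehicle DMSO or in 0.2 μM vemurafenib for 24 or 48 h. There were 2 replicate plates per group, 6 groups and 12 libraries, and the DMSO plates of a line served as the control for both times. The harvest time of the DMSO plates is not given in the labels, so drug and time in culture may differ together in the comparisons with DMSO. COLO858 was grown in an RPMI medium and MMACSF in DMEM/F12, from different seeding densities, so the line, its medium and its density cannot be told apart. The replicates were plates of the same line, so p-values measure the spread between plates. With bulk RNA, a change in the share of cells that express a gene and a change in RNA per cell cannot be told apart.

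Force in non-muscle cells is made by myosin II, a pair of heavy chains that carry essential and regulatory light chains, pulling on actin filaments that are wrapped by tropomyosins and tied together by alpha-actinins and filamins. Phosphorylation of the regulatory light chains turns the motor on, and calponins and caldesmon restrain it. Free actin holds back the cofactors of the transcription factor SRF, and many genes of the contractile apparatus are known SRF targets. In melanoma cells this apparatus is known for its part in cell shape, adhesion and movement.

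The libraries were checked against the labels before the members were read. Of 6 melanocyte lineage markers, all reached 1 FPKM in MMACSF in 6 of 6 libraries, whereas in COLO858 MLANA stayed between 0.299 and 0.725 FPKM and TYR reached 1 FPKM in only 2 of 6 libraries. Of 3 endothelial and 3 leukocyte markers, 0 reached 1 FPKM in any library of either line. Among 5 smooth muscle markers, MYOCD was listed at 0 in all 12 libraries and DES stayed at or below 0.198 FPKM. SMTN lay between 6.80 and 21.2 FPKM in COLO858 and between 14.6 and 24.7 FPKM in MMACSF. MYH11 reached 1.45 and 1.22 FPKM at most in COLO858 and MMACSF, and LMOD1 reached 1.12 and 0.427 FPKM. The summed level of the list, most of it SMTN, ran from 7.88 to 23.3 FPKM in COLO858 and from 15.6 to 26.3 FPKM in MMACSF. Among 6 fibroblast markers, of which LUM was the highest, the summed level had means of 10.7, 19.3 and 30.1 FPKM in DMSO, at 24 and at 48 h in COLO858 and of 68.5, 49.3 and 24.5 FPKM in MMACSF, and 5 of 6 and 3 of 6 markers reached 1 FPKM in some library. Of the 5 fibroblast markers tested at 48 h in COLO858, 4 were above DMSO and 1 below it, COL1A2, at means of 2.62 and 0.113 FPKM. In MMACSF all 3 tested were below DMSO. The part of these marker levels in the results below was not tested. Replicate 1 lay on the same side of replicate 2 in all 3 groups of the line for 34 of 37 members in COLO858 and for 27 of 35 members in MMACSF, and what the replicate numbers share is not stated in the labels. For this reason the counts of called members are given without and with the replicate number as a block in the model, and a call is one without it unless stated. A gene was called at an adjusted p under 0.01 in limma on log2(FPKM + 1), and all log2 differences are on that scale.

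In COLO858 the called members were mostly risers, and they were more numerous at 48 h. At 24 h, 2 members rose and 1 fell in COLO858, against a background over all 12696 genes tested of 4.11% higher and 5.71% lower. At 48 h in COLO858, 10 of 37 members rose (among them ACTA2, MYL6, MYL9, TPM1, CNN1, TAGLN, CALD1, VCL and LIMA1) and 0 fell, where the background was 4.74% higher and 4.73% lower. Before adjustment, 17 of 37 members had a p under 0.05 at 24 h and 21 of 37 at 48 h, where 40.3% and 39.3% of all genes did. CNN1 and TAGLN averaged less than 1 FPKM in DMSO and so were tested only through the treated groups in which they were higher, which leaves 8 risers at 48 h apart from them. The median log2 difference of the members at 48 h was 0.54, beside -0.01 over all genes tested, and 28 of 37 were above 0. With the replicate block, 10 members rose and 14 fell at 24 h (background 23.2% and 21.8%), and 21 rose and 4 fell at 48 h (20.4% and 23.3%). Between 24 and 48 h in COLO858, 2 members rose and 0 fell without the block (1.17% and 0.213%), and 27 of 37 had a p under 0.05 before adjustment, beside 20.1% of all genes. The block fit gave 27 that rose and 1 that fell (9.13% and 8.83%). The median of the members between these times was 0.72, beside -0.07 over all genes.

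In MMACSF the called members were divided between risers and fallers. At 24 h, 2 of 35 members rose and 3 fell, with a background over 12599 genes of 2.22% higher and 3.60% lower. At 48 h, 3 members rose and 4 fell (3.42% and 5.41%). The medians were -0.21 at 24 h and -0.19 at 48 h, beside 0.07 and 0.06 over all genes. With the block the counts were 4 higher and 11 lower at 24 h (13.1% and 13.0%), and 6 higher and 12 lower at 48 h (14.8% and 15.3%). From 24 to 48 h, limma called 0 members in either direction without the block (0.111% and 0.111%) and 0 with it (0.0794% and 0.175%), and 2 of 35 had an unadjusted p under 0.05, beside 6.98% of all genes. Leaving small RNA genes out of the sum, the 38 genes made up 1.62% and 1.47% of all FPKM in the COLO858 DMSO libraries and 2.49% and 2.25% at 48 h. In MMACSF the same share went from 1.61% and 1.50% to 1.03% and 0.971%. Such a sum follows its most abundant members. Mean ACTB, for 1, went from 2377 to 3134 FPKM at 48 h in COLO858 and from 1652 to 463 FPKM in MMACSF.

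**Figure D1:**
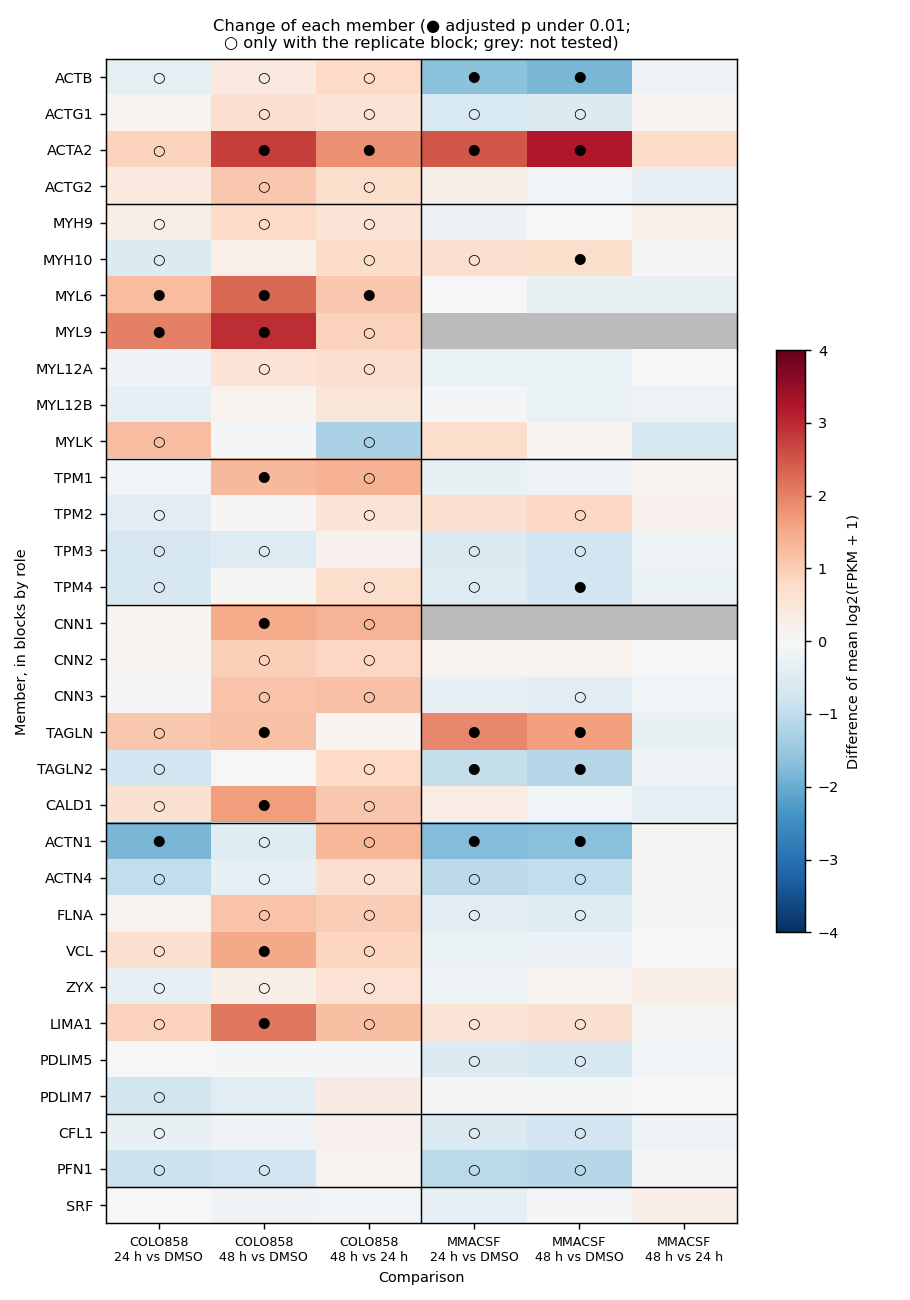
Heat map of the difference of mean log2(FPKM + 1) for 32 members (rows, in blocks by role) in 6 comparisons (columns), with filled circles at an adjusted p under 0.01, open circles where that held only with the replicate block, and grey where a gene was not tested. The 48 h columns hold 9 filled circles on red in COLO858, and 3 on red and 4 on blue in MMACSF.

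The change in COLO858 minus the change in MMACSF was tested as an interaction over all 12 libraries. At 24 h, 3 of 37 members moved higher in COLO858 relative to MMACSF and 2 moved lower (background over 13595 genes 1.78% and 1.93%). At 48 h, 9 were higher and 0 lower (4.19% and 3.30%), with a median of 0.82 beside -0.04 over all genes and 24 of 37 members, with 27.5% of all genes, at a p under 0.05 before adjustment. Of the step from 24 to 48 h, 4 were higher and 0 lower (2.46% and 0.508%), with 22 of 37 members and 17.4% of all genes under 0.05 before adjustment. At 24 h, 9 of 37 and 21.2% were. With the block the counts were 11 and 3 at 24 h (8.98% and 8.64%), 24 and 2 at 48 h (13.0% and 12.2%), and 25 and 0 for the step (7.62% and 5.43%).

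**Figure D2:**
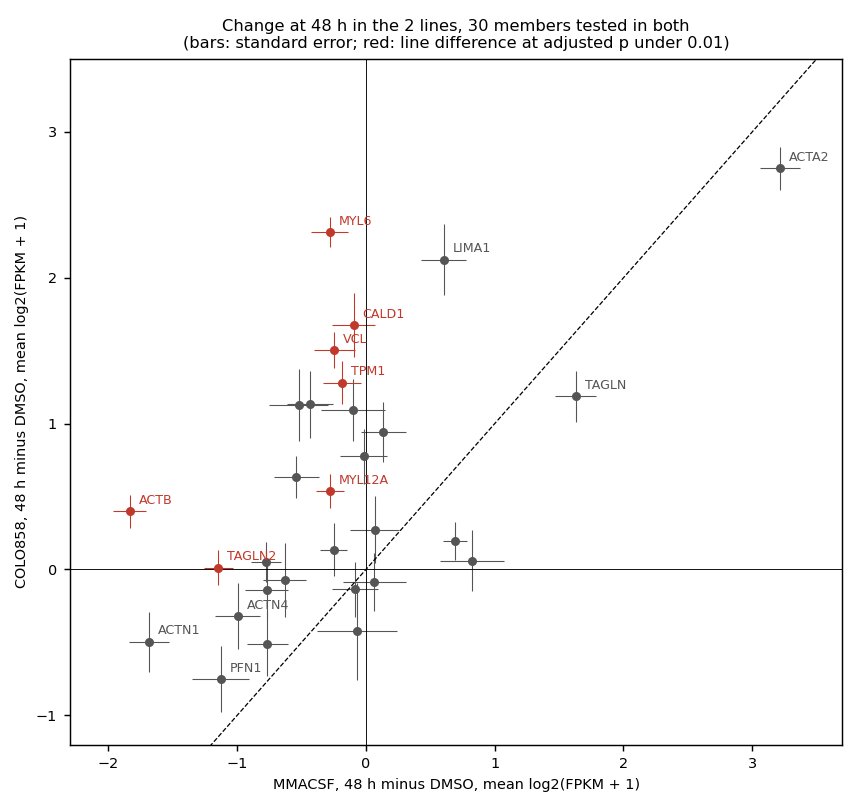
Difference between 48 h and DMSO in mean log2(FPKM + 1) for 30 members tested in both lines, MMACSF on the x axis and COLO858 on the y axis, with standard errors as bars and the line of equal change dashed. The 7 red points are members whose difference between lines had an adjusted p under 0.01, and all 7 lie above the dashed line. ACTA2, at 2.75 in COLO858 and 3.22 in MMACSF, is not among them and lies below that line.

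Among the actins, ACTA2 rose in both lines while ACTB fell in MMACSF. ACTA2 (chr10:90694831-90751096, minus strand, hg19/GRCh37) encodes the smooth muscle alpha-actin. In COLO858 it was at 11.6 and 9.59 FPKM in DMSO, 21.6 and 20.2 at 24 h, and 78.9 and 74.4 at 48 h. MMACSF held 3.06 and 3.80 FPKM in DMSO, 24.3 and 22.8 at 24 h, and 43.7 and 36.8 at 48 h. In each line the 3 groups did not overlap, and each step was upward. The rise at 48 h was 6.73-fold on the FPKM + 1 scale in COLO858 (log2 difference 2.75 ± 0.15 SE, adjusted p = 0.000665) and 9.30-fold in MMACSF (3.22 ± 0.16, adjusted p = 0.000446). At 24 h it was called in MMACSF (2.48 ± 0.16, adjusted p = 0.00153) but not in COLO858, where the difference was 0.92, and this contrast was itself past the threshold, at -1.55 ± 0.20 for COLO858 minus MMACSF (adjusted p = 0.00253). COLO858 then rose by 1.83 ± 0.15 between 24 and 48 h (adjusted p = 0.00556). The ACTA2 gene overlaps FAS and STAMBPL1 on the opposite strand, and whether counting used the strand is not stated, so their reads cannot be told apart. FAS, which encodes a death receptor, had means of 1.63, 4.31 and 12.8 FPKM in DMSO, at 24 and at 48 h in COLO858, and 3.75, 5.56 and 6.22 FPKM in MMACSF.

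ACTB (chr7:5566040-5603533, minus strand), a cytoplasmic actin used by nearly every cell, was at 1718 and 1585 FPKM in DMSO, 565 and 501 at 24 h, and 489 and 437 at 48 h in MMACSF. All 4 treated libraries lay far below the DMSO pair. The fall was 3.10-fold at 24 h (log2 difference -1.63 ± 0.13, adjusted p = 0.00221) and 3.57-fold at 48 h (-1.83 ± 0.13, adjusted p = 0.00113). In COLO858 the values were 2509 and 2246 FPKM in DMSO, 1897 and 1717 at 24 h, and 3246 and 3022 at 48 h, lowest at 24 h and highest at 48 h. Those differences, -0.40 and 0.40, were called only with the block. The lines differed in their ACTB change by 1.24 ± 0.16 at 24 h (adjusted p = 0.00301), 2.23 ± 0.16 at 48 h (adjusted p = 8.46e-05) and 1.00 ± 0.16 between the times (adjusted p = 0.00883).

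The other actins passed no test without the block. ACTG1, the second cytoplasmic actin, was at 1303 and 1161 FPKM in COLO858 DMSO and 2061 and 1760 at 48 h, and at 2135 and 1814 and then 1489 and 1227 FPKM in MMACSF, a line difference of 1.17 ± 0.23 with an adjusted p = 0.0113. ACTG2, the enteric smooth muscle actin, was low, at 2.53 and 1.69 FPKM in COLO858 DMSO and 6.33 and 4.90 at 48 h (1.09 ± 0.21, adjusted p = 0.0205), while the 6 MMACSF libraries lay between 0.847 and 1.80 FPKM. As shares of summed actin FPKM, ACTA2 went from 0.302% and 0.281% to 1.46% and 1.53% at 48 h in COLO858, and from 0.0794% and 0.112% to 2.16% in each of the pair in MMACSF. ACTB went from 44.5% and 46.6% to 24.2% and 25.7% of actin FPKM in MMACSF at 48 h. The annotation holds 12 pseudogenes named after ACTB and 21 named after ACTG1, from which short reads may not be told apart.

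**Figure D3:**
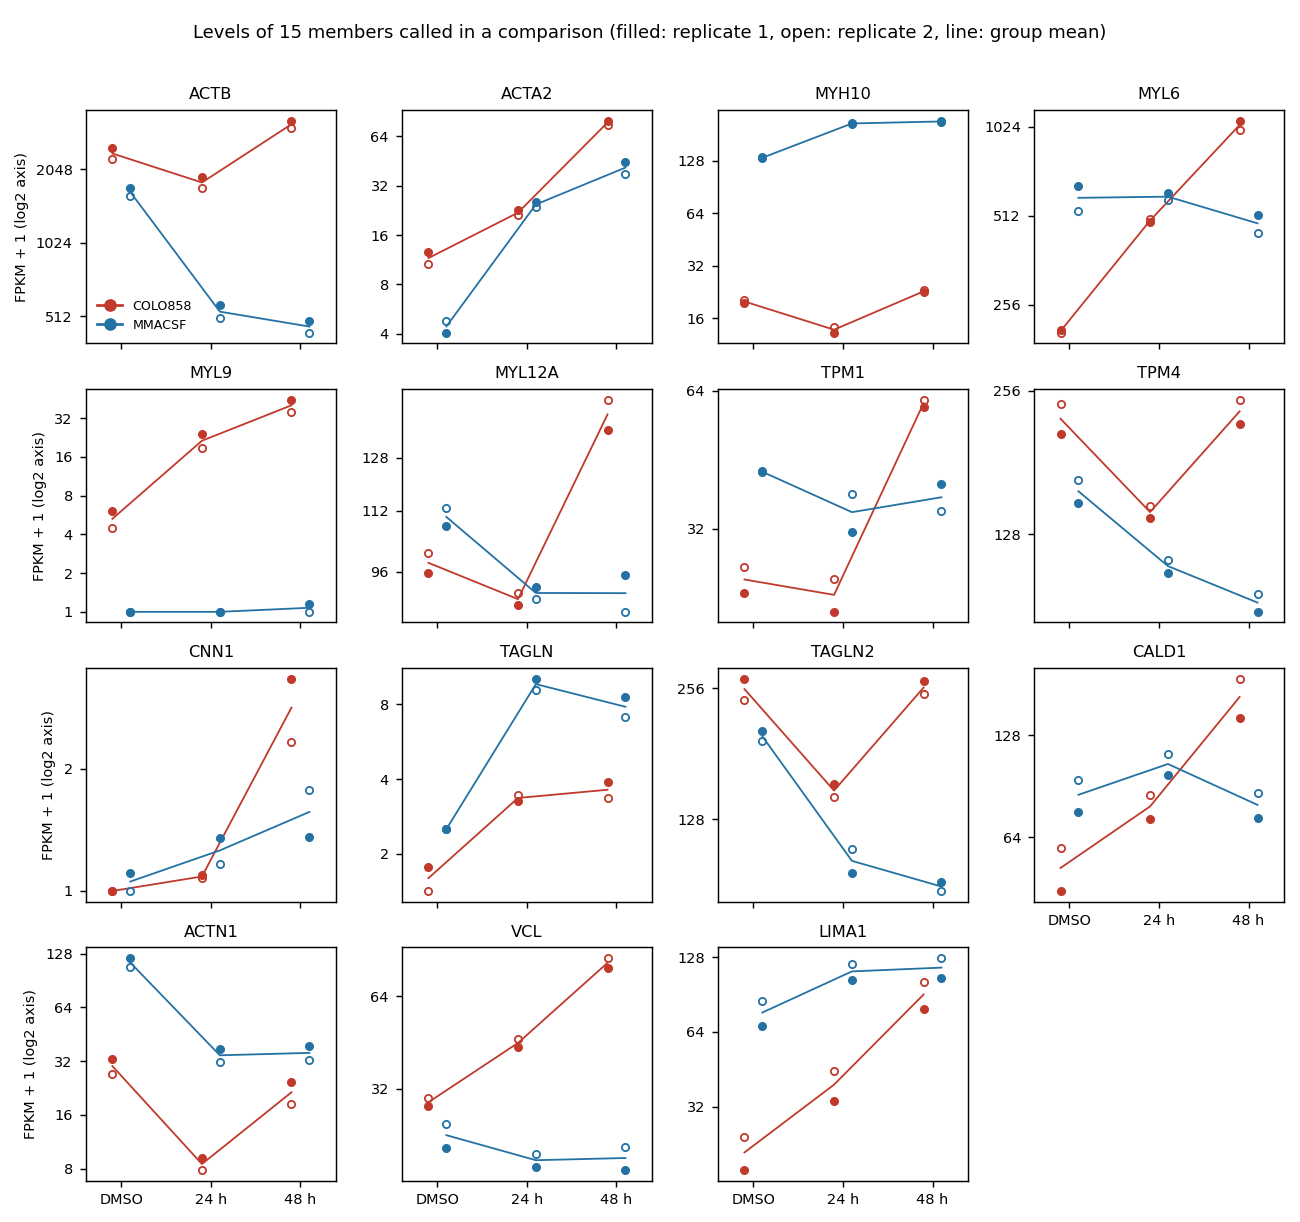
FPKM + 1 on a log2 axis for 15 members called in a comparison, in DMSO and at 24 and 48 h, with replicate 1 filled, replicate 2 open and lines through the group means. The tables of the lines may have been scaled apart, so levels are for comparison within a line: ACTA2 climbs in both lines, MYL6 and VCL climb in COLO858, and ACTB and TAGLN2 descend in MMACSF.

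Of the myosin II genes, the light chains MYL6 and MYL9 rose in COLO858 at both times, and the heavy chain MYH10 rose in MMACSF at 48 h. MYL6 (chr12:56552130-56557280, plus strand), the essential light chain of non-muscle myosin II, was at 210 and 205 FPKM in COLO858 DMSO, 485 and 500 at 24 h, and 1072 and 999.6 at 48 h. The pairs were far apart at every step. The increase was 2.36-fold at 24 h (1.24 ± 0.10, adjusted p = 0.00201) and 4.96-fold at 48 h (2.31 ± 0.10, adjusted p = 0.000467), and 1.07 ± 0.10 between the times (adjusted p = 0.00858). In MMACSF, MYL6 stood at 645 and 530 FPKM in DMSO, 609 and 577 at 24 h, and 516 and 448 at 48 h, where the DMSO and 24 h values overlapped. The line difference was 1.22 ± 0.17 at 24 h (adjusted p = 0.00353), 2.59 ± 0.17 at 48 h (adjusted p = 4.45e-05) and 1.37 ± 0.17 for the step (adjusted p = 0.00228). MYL6 thereby went from 44.7% and 42.3% of the summed FPKM of the 4 light chains to 75.9% and 71.6% in COLO858, and held between 66.9% and 71.8% in the MMACSF libraries. Its neighbour MYL6B, which overlaps it on the same strand, had means of 66.3, 79.2 and 88.1 FPKM in COLO858.

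MYL9 (chr20:35169900-35179850, plus strand), a regulatory light chain typical of smooth muscle, was at 5.10 and 3.47 FPKM in COLO858 DMSO, 23.0 and 17.7 at 24 h, and 43.6 and 35.0 at 48 h. Each group lay above the last. It rose by 2.02 ± 0.24 at 24 h (4.06-fold, adjusted p = 0.00458) and 2.94 ± 0.24 at 48 h (7.67-fold, adjusted p = 0.00184). MYL9 was listed at 0 in 5 of 6 MMACSF libraries and at 0.151 FPKM in the other, so no change could be tested within that line. In the fit over both lines the difference was 2.02 ± 0.27 at 24 h (adjusted p = 0.00344) and 2.84 ± 0.27 at 48 h (adjusted p = 0.000370). With MYL9 at or near 0 in MMACSF, these values are in effect the COLO858 change. The regulatory light chain gene MYL12A (chr18:3247479-3256234, plus strand) was at 94.6 and 99.7 FPKM in COLO858 DMSO and 136 and 147 at 48 h, and at 107 and 112 and then 94.1 and 85.7 FPKM in MMACSF. Neither change was called, but their difference was, at 0.82 ± 0.13 (adjusted p = 0.00377). MYL12B, its close relative, stayed between 120 and 214 FPKM in all 12 libraries and was called nowhere without the block.

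MYH10 (chr17:8377525-8534694, minus strand), the heavy chain of non-muscle myosin IIB, was at 133 and 131 FPKM in MMACSF DMSO, 206 and 211 at 24 h, and 217 and 212 at 48 h. Replicates differed by far less than the treated groups did from DMSO. The difference was 0.69 ± 0.10 at 48 h (1.62-fold, adjusted p = 0.00797). In COLO858 the same gene went from 18.4 and 19.5 FPKM to 12.2 and 13.3 at 24 h and to 21.5 and 22.1 at 48 h, so that the lines differed at 24 h by -1.19 ± 0.12 (adjusted p = 0.000960). MYH9, the myosin IIA heavy chain, was at 87.0 and 71.6 FPKM in COLO858 DMSO, 105 and 83.6 at 24 h and 150 and 123 at 48 h (0.78 ± 0.19 at 48 h, called only with the block), and lay between 93.5 and 139 FPKM in MMACSF. MYH10 went from 48.9% and 54.9% of the FPKM of the 2 heavy chains in MMACSF DMSO to 62.6% and 65.1% at 48 h. MYLK, the myosin light chain kinase, was highest at 24 h: 3.76 and 4.93 FPKM in COLO858 DMSO, 10.8 and 12 at 24 h, and 3.44 and 4.64 at 48 h (1.23 ± 0.20, adjusted p = 0.0118 at 24 h, and -1.31 ± 0.20, adjusted p = 0.0263, from 24 to 48 h). Those differences were called only with the block (adjusted p = 0.000677 and 0.00162), where MYLK was the lone member that fell from 24 to 48 h.

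**Figure D4:**
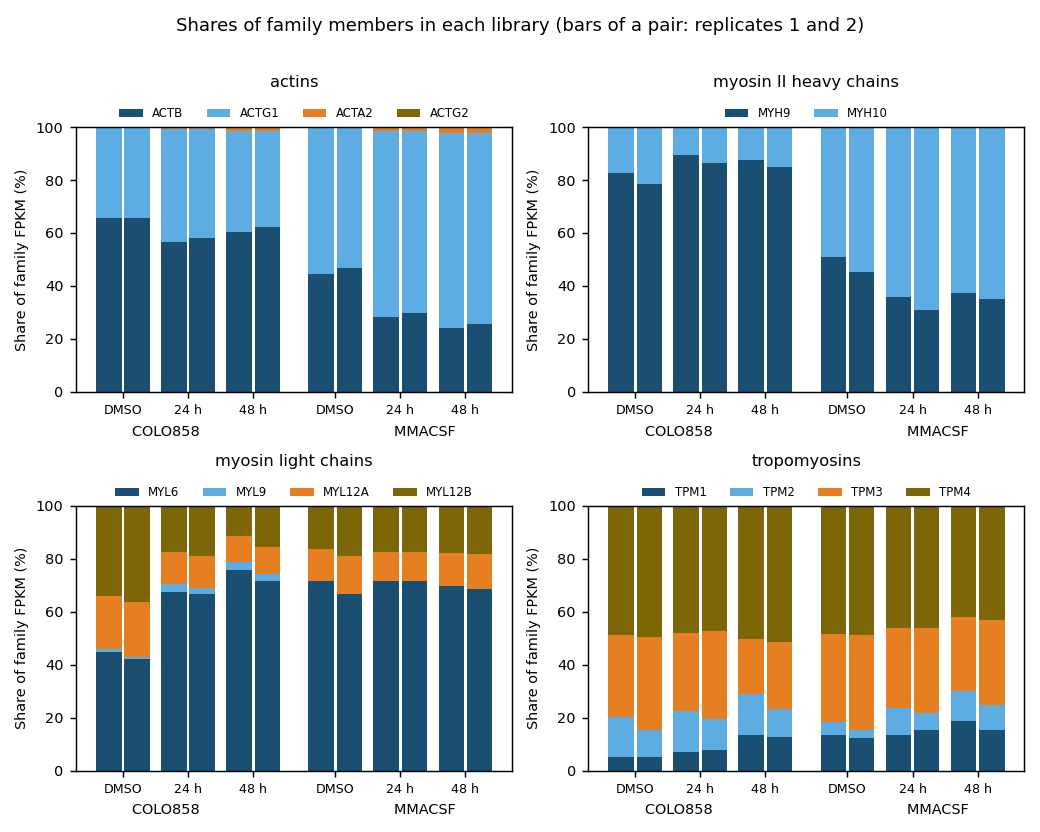
Share of each family's summed FPKM (y axis, 0 to 100%) taken by each member in the 12 libraries, with replicates 1 and 2 side by side, for 4 families. MYL6 widens from 44.7% and 42.3% to 75.9% and 71.6% of the light chains in COLO858, and ACTB narrows from 44.5% and 46.6% to 24.2% and 25.7% of the actins in MMACSF.

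TPM1 was the tropomyosin that rose in COLO858, and TPM4 fell in MMACSF. TPM1 (chr15:63334819-63364114, plus strand) was at 22.2 and 25.4 FPKM in COLO858 DMSO, 20.1 and 23.8 at 24 h, and 58.1 and 60.2 at 48 h. The first 2 groups overlapped and the 48 h pair stood well above them. The difference at 48 h was 1.28 ± 0.15 (2.43-fold, adjusted p = 0.00506), and that from 24 to 48 h was 1.40 ± 0.15 (adjusted p = 0.0108). In MMACSF, TPM1 ran from 30.4 to 41.7 FPKM over the 6 libraries, and the lines differed by 1.47 ± 0.20 at 48 h (adjusted p = 0.00180) and by 1.28 ± 0.20 for the step (adjusted p = 0.00690). The TPM1 share of the tropomyosin FPKM in COLO858 went from 5.25% and 5.26% to 13.5% and 12.7%.

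TPM4 (chr19:16177831-16213812, plus strand) was at 148 and 165 FPKM in MMACSF DMSO, 105 and 112 at 24 h, and 87.0 and 95.0 at 48 h. It fell by 0.77 on the log2 scale at 48 h (SE 0.12, adjusted p = 0.00962), and no group overlapped another. In COLO858 the lowest TPM4 values were those at 24 h, 137 and 146 FPKM, beside 206 and 239 in DMSO and 217 and 244 at 48 h. TPM2 was at 14.1 and 10.2 FPKM in MMACSF DMSO and 23.3 and 20.9 at 48 h, and at 62.7 and 49.4 in COLO858 DMSO and 44.1 and 36.4 at 24 h. The line difference of TPM2 at 24 h, -1.12 ± 0.34, had an adjusted p = 0.0919. TPM3, whose log2 differences from DMSO lay between -0.77 and -0.51 in both lines, was called only with the block.

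In the group of calponins, transgelins and caldesmon, 3 of 6 members rose at 48 h in COLO858, beside 4.74% of all genes. With the block 5 of 6 rose, beside 20.4%. Of the 3, CNN1 and TAGLN were tested only through the treated groups in which they were higher. In MMACSF, TAGLN rose while TAGLN2 fell. TAGLN (chr11:117070086-117078180, plus strand), a smooth muscle marker that binds actin, was at 0.778 and 0.420 FPKM in COLO858 DMSO, 2.26 and 2.46 at 24 h, and 2.89 and 2.36 at 48 h. MMACSF held 1.51 and 1.52 FPKM in DMSO, 9.13 and 8.16 at 24 h, and 7.54 and 6.09 at 48 h. In both lines the DMSO pair lay below all 4 treated libraries, and levels were low. The difference in COLO858 was 1.19 ± 0.18 at 48 h (adjusted p = 0.00945), and in MMACSF it was 1.94 ± 0.16 at 24 h (adjusted p = 0.00256) and 1.63 ± 0.16 at 48 h (adjusted p = 0.00305). ACTA2 and TAGLN were the 2 members that rose in both lines at 48 h. The TAGLN gene overlaps PCSK7 on the opposite strand, and with strand use not stated their reads cannot be told apart. PCSK7 had means of 4.49, 5.49 and 7.11 FPKM in DMSO, at 24 and at 48 h in COLO858. Its means in MMACSF were 17.0, 18.8 and 18.3 FPKM. The TAGLN call in COLO858 was lost under 4 of 7 other settings of the fit, at adjusted p = 0.0119 with 0.1 FPKM added, 0.0132 with no minimum, 0.0115 with rescaling and 0.0207 with only the groups compared. It was also lost without each of the 4 DMSO and 48 h libraries, at adjusted p = 0.0274 to 0.0519.

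TAGLN2 (chr1:159887897-159895297, minus strand), its broadly expressed relative, was at 203 and 192 FPKM in MMACSF DMSO, 95.2 and 108 at 24 h, and 90.8 and 86.7 at 48 h. It fell by 0.95 at 24 h (SE 0.12, adjusted p = 0.00677) and by 1.15 at 48 h (SE 0.12, adjusted p = 0.00331). In COLO858 it was at 268 and 240 FPKM in DMSO, 153 and 143 at 24 h, and 265 and 247 at 48 h, back within the DMSO range. The line difference was 1.16 ± 0.15 at 48 h (adjusted p = 0.00143) and 0.98 ± 0.15 for the step (adjusted p = 0.00654).

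CALD1 (chr7:134429003-134655480, plus strand), which encodes caldesmon, was at 43.4 and 58.4 FPKM in COLO858 DMSO, 71.4 and 84.3 at 24 h, and 143 and 186 at 48 h. The rise at 48 h was 3.20-fold (1.68 ± 0.22, adjusted p = 0.00664). In MMACSF it lay between 72.1 and 112 FPKM, with the DMSO and 48 h values overlapping, and the line difference was 1.77 ± 0.29 (adjusted p = 0.00434). CNN1 (chr19:11649582-11661138, plus strand), the smooth muscle calponin, was listed at 0 in both COLO858 DMSO libraries, at 0.0941 and 0.0773 FPKM at 24 h, and at 2.33 and 1.33 FPKM at 48 h. It was called at 48 h (adjusted p = 0.00743), but it passed the minimum of 1 FPKM only through the 48 h group, and no fold is given against a group at 0. In MMACSF, CNN1 stayed at or below 0.777 FPKM. CNN3, the acidic calponin, was at 57.9 and 74.9 FPKM in COLO858 DMSO and 124 and 171 at 48 h (1.13 ± 0.23, adjusted p = 0.0231), and at 111 and 142 and then 84.7 and 102 FPKM in MMACSF (-0.43), both called only with the block. CNN2 was at 65.7 and 53.8 and then 129 and 103 FPKM in COLO858 (0.94, called only with the block), and between 37.0 and 50.3 FPKM in MMACSF.

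ACTN1 fell in both lines at 24 h, and among the crosslinkers and adhesion linkers VCL and LIMA1 rose in COLO858. ACTN1 (chr14:69340845-69446157, minus strand), an alpha-actinin that ties filaments into bundles, was at 32.0 and 26.0 FPKM in COLO858 DMSO, 8.13 and 6.84 at 24 h, and 23.4 and 17.5 at 48 h. MMACSF held 120 and 106 FPKM in DMSO, 36.4 and 30.7 at 24 h, and 37.8 and 31.4 at 48 h. The 24 h pairs lay far below DMSO in both lines, and at 48 h only MMACSF was still as low. In COLO858 the difference was -1.82 ± 0.21 at 24 h (a 3.53-fold fall, adjusted p = 0.00427) and -0.49 at 48 h, which was called only with the block. In MMACSF it was -1.73 ± 0.16 at 24 h (adjusted p = 0.00316) and -1.68 ± 0.16 at 48 h (adjusted p = 0.00265). The lines differed for the step by 1.28 ± 0.26, with an adjusted p = 0.0239 that missed the threshold. ACTN4, the other non-muscle alpha-actinin, went from 168 and 140 FPKM to 82.8 and 65.3 at 24 h and 83.1 and 70.3 at 48 h in MMACSF (-1.05 ± 0.18 at 24 h, adjusted p = 0.0154). In COLO858 it was at 364 and 280 FPKM in DMSO, 187 and 139 at 24 h (-0.98 ± 0.23, adjusted p = 0.0315) and 287 and 227 at 48 h (-0.32). These ACTN4 differences were called only with the block.

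VCL (chr10:75754951-75881121, plus strand) encodes vinculin, which links actin to adhesions. Its COLO858 values were 27.1 and 28.8 FPKM in DMSO, 42.8 and 45.5 at 24 h, and 78.1 and 84.2 at 48 h, without overlap. It rose by 1.50 ± 0.12 at 48 h (2.84-fold, adjusted p = 0.00198), and in MMACSF it lay between 16.4 and 23.7 FPKM, with a line difference of 1.75 ± 0.19 (adjusted p = 0.000578). LIMA1 (chr12:50569571-50677303, minus strand), which encodes the filament-stabilising protein EPLIN, was at 16.7 and 23.0 FPKM in COLO858 DMSO, 32.8 and 43.6 at 24 h, and 78.0 and 101 at 48 h. The rise at 48 h was 4.36-fold (2.12 ± 0.24, adjusted p = 0.00481). In MMACSF, LIMA1 was at 66.8 and 84.5 FPKM in DMSO and 104 and 126 at 48 h, a difference of 0.61 called only with the block. The line difference, 1.52 ± 0.32, had an adjusted p = 0.0143.

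FLNA, the main filamin of non-muscle cells, was at 124 and 92.6 FPKM in COLO858 DMSO, 134 and 103 at 24 h, and 277 and 199 at 48 h (1.13 ± 0.25 at 48 h, adjusted p = 0.0284). In MMACSF it was at 77.0 and 60.1 FPKM in DMSO and 52.5 and 42.2 at 48 h, and the line difference, 1.65 ± 0.36, had an adjusted p = 0.0181. Both FLNA results passed with the block (adjusted p = 0.000236 and 4.08e-05). ZYX, PDLIM5 and PDLIM7, which sit at adhesions and Z-disc-like structures, had log2 differences between -0.74 and 0.59 in the 6 comparisons within lines, and none was called without the block.

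The actin turnover genes had negative differences from DMSO in both lines, none of which passed without the block. PFN1, profilin, which feeds actin monomers to filament ends, was at 1399 and 1048 FPKM in COLO858 DMSO, 755 and 579 at 24 h, and 814 and 636 at 48 h. MMACSF held 1257 and 952 FPKM in DMSO, 584 and 449 at 24 h, and 566 and 442 at 48 h. The 4 treated libraries of each line lay below its DMSO pair, yet the replicates were far apart. The differences in MMACSF were -1.09 ± 0.22 at 24 h (adjusted p = 0.0256) and -1.13 ± 0.22 at 48 h (adjusted p = 0.0197). CFL1, cofilin, which severs filaments, had differences of -0.31 and -0.14 at 24 and 48 h in COLO858 and of -0.59 and -0.77 in MMACSF. The annotation holds 11 pseudogenes named after PFN1 and 8 named after CFL1.

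SRF lay between 17.3 and 23.6 FPKM in COLO858 and between 7.71 and 11.8 FPKM in MMACSF, and it was called nowhere with or without the block.

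Because SRF is known to bind the CArG box, the promoters of the members were searched for it on both strands. The windows ran from 250 bases before to 50 bases after each start site in the RefSeq promoter table. Only exact matches to CCWWWWWWGG, where W is A or T, were counted. Of the 38 members, 35 were in the table and ACTB, TAGLN and MYL9 were not. A CArG box was found for 9 of the 35 (25.7%), beside 438 of 27305 genes (1.60%) in the table. Counted by window, it was found in 9 of the 59 windows of the members (15.3%), beside 454 of 35116 windows (1.29%). The members were listed for roles that are known to include SRF targets, so these shares are a description. The boxes of 8 of these members are shown 5′ to 3′ on the strand of the gene, in capitals, with 10 bases of hg19/GRCh37 on each side, to show which members hold it and how the boxes differ:
ACTG1, chr17:79479900-79479929, minus strand: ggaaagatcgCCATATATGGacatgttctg
ACTG2, chr2:74120015-74120044, plus strand: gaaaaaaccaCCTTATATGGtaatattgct
ACTG2, chr2:74120052-74120081, plus strand: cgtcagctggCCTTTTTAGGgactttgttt
MYLK, chr3:123339470-123339499, minus strand: ataaaccatcCCTTTTATGGgagttgaagc
TPM4, chr19:16178165-16178194, plus strand: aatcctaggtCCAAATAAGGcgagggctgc
CNN2, chr19:1026508-1026537, plus strand: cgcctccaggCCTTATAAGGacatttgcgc
ACTN1, chr14:69444435-69444464, minus strand: acgctcatgtCCAAAAATGGtaacattcat
FLNA, chrX:153603077-153603106, minus strand: ggcaattttaCCAATTAAGGctttctcgcc
SRF, chr6:43138967-43138996, plus strand: ctggggctcaCCATATAAGGagcggcctcg
SRF, chr6:43138987-43139016, plus strand: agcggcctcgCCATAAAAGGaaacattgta

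Each of these boxes lay upstream of a listed start site, between 173 and 1 bases before it. The MYLK box lay at a start site inside the gene, far from the gene's upstream end at chr3:123603179. The MYLK values are for the whole gene, and its transcripts were not told apart. Among the 8 members, ACTG2, ACTG1, CNN2 and FLNA had log2 differences of 1.09, 0.63, 0.94 and 1.13 at 48 h in COLO858, all called only with the block, while SRF was at -0.14, MYLK at -0.09, TPM4 at 0.05 and ACTN1 at -0.49. In MMACSF at 48 h, ACTG2, ACTG1, CNN2 and FLNA were at -0.10, -0.54, 0.14 and -0.52, SRF at -0.08 and MYLK at 0.06, while ACTN1 at -1.68 and TPM4 at -0.77 had fallen. No exact match lay in the searched windows of ACTA2, CNN1, TPM1, CALD1, VCL, LIMA1 or MYL6, which were called in COLO858. Boxes with another base, or outside the windows, were not searched for, so these genes cannot be said to lack a CArG box.

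The wider pathway was read from 81 further genes, of which 74 were tested in each line. In COLO858, 1 rose and 5 fell at 24 h (16 and 24 with the block), and 5 rose and 1 fell at 48 h (22 and 19 with the block). In MMACSF, 1 rose and 4 fell at 24 h (5 and 16 with the block), and 1 rose and 10 fell at 48 h (6 and 21 with the block). The background over all genes in COLO858 was 4.11% higher and 5.71% lower at 24 h, and 4.74% and 4.73% at 48 h. In MMACSF it was 2.22% and 3.60% at 24 h, and 3.42% and 5.41% at 48 h. With the block it was 23.2% and 21.8% at 24 h and 20.4% and 23.3% at 48 h in COLO858. For MMACSF the block gave 13.1% and 13.0% at 24 h, and 14.8% and 15.3% at 48 h. The median log2 difference at 48 h was 0.09 in COLO858 and -0.13 in MMACSF, beside -0.01 and 0.06 over all genes. The largest rise among thin filament and LIM genes in COLO858 was that of PALLD, which encodes the bundling protein palladin, from 8.52 and 11.0 to 37.4 and 43.7 FPKM (1.96 ± 0.19, adjusted p = 0.00312). PFN2, the second profilin gene, rose there from 105 and 129 to 419 and 538 FPKM (2.01 ± 0.19, adjusted p = 0.00280). DIAPH1, a formin that nucleates actin filaments, was the lone called faller of COLO858 at 48 h, from 43.7 and 47.1 to 16.7 and 17.7 FPKM (-1.35 ± 0.14, adjusted p = 0.00343).

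In MMACSF at 48 h, the fall with the greatest size among the genes named here was that of CIT, the citron kinase of cytokinesis, from 12.5 and 11.5 to 1.62 and 1.35 FPKM (-2.39 ± 0.16, adjusted p = 0.00102). ECT2, an exchange factor needed for cytokinesis, fell from 16.1 and 21.3 to 2.97 and 4.57 FPKM (-2.05 ± 0.22, adjusted p = 0.00421). FHL2, a LIM protein, fell from 53.6 and 49.1 to 20.0 and 17.1 FPKM (-1.42 ± 0.16, adjusted p = 0.00448), and LCP1, a bundling protein, fell from 4.94 and 6.92 to 0.451 and 0.732 FPKM (-2.11 ± 0.25, adjusted p = 0.00523). LCP1, at 0.483 and 1.09 FPKM at 24 h, averaged 1 FPKM or more only in DMSO. It was thus tested only through the group in which it was higher. SPTBN1, a spectrin, was the lone riser, from 67.5 and 65.5 to 107 and 111 FPKM (0.70 ± 0.11, adjusted p = 0.00957). Between lines at 48 h, 12 of 76 genes of the wider list were higher and 1 lower in COLO858 relative to MMACSF. The background was 4.19% and 3.30% of all genes, and the median of the wider list was 0.28. With the block 29 were higher and 9 lower (background 13.0% and 12.2%).

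The calls within a line rested on 2 libraries per group. With any 1 library left out, most calls within a line were lost, among the members as over all genes tested. The log2 difference of MYL6 at 48 h in COLO858 stayed between 2.26 and 2.36 over the alternative fits. Over the alternative fits, the difference between lines at 48 h ran from 2.15 to 2.32 for ACTB, 2.45 to 2.74 for MYL6 and 1.37 to 1.57 for TPM1. It ran from 0.75 to 0.89 for MYL12A, 1.08 to 1.24 for TAGLN2, 1.56 to 1.98 for CALD1 and 1.62 to 1.88 for VCL. That of MYL9, 2.52 to 3.06, is in effect the COLO858 change, because MYL9 was at or near 0 in MMACSF. In no fit with 1 library left out did a called member change its direction.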

How the data were processed

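Poly(A) RNA of 12 libraries (stranded mRNA kit, spike-in RNA, single reads) was sequenced by the authors, who used TopHat with its defaults for alignment to hg19 and then Cuffdiff on Galaxy. The deposited values are FPKM, in 1 table per line. Program versions, annotation, strand setting and library scaling are not given in the sources used here, and depth is unknown, so levels are not compared between lines. All 12 columns were used.

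FPKM values were compared as log2(FPKM + 1) in limma 3.58.1 (R 4.3.3), with 3 groups per line, or 6 groups over 12 libraries for the difference between lines (the interaction), and empirical Bayes moderation with a trend. A gene was tested if any group averaged 1 FPKM or more, two-sided, with Benjamini-Hochberg adjustment over all of them and a threshold of 0.01, the level of the study's methods. Library values were given for members called in any of the 9 comparisons or with a log2 difference of at least 1. Other pathway genes were named only for the largest called rise and fall of each list at 48 h. The code was tested on simulated data. Counts and medians cover the whole list, but some of its members are not reported here by name or in the figures. Members and lists were chosen with earlier results of these data known.

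After group means were removed, libraries with equal replicate numbers had correlations of 0.196 to 0.211 (COLO858) and 0.0628 to 0.113 (MMACSF), or 0.753 to 0.779 and 0.590 to 0.673 once small RNA genes were left out. The labels do not say what the numbers pair, so the block was an alternative. Gene positions are from GENCODE v44 on GRCh37, and promoters from RefSeq (GRCh38.p14), placed on GRCh37 by exact match. Other alternatives were 0.1 FPKM added, no minimum, a minimum of 10 FPKM, median-ratio rescaling, no trend, only the groups compared, no small RNA genes, and each library left out.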

Additional observations from a re-analysis of the deposited data

Results flagged for a closer look

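The results below were picked out because COLO858 and MMACSF differed in their change from DMSO, or in their step from 24 to 48 h, by the interaction test over 12 libraries (limma, adjusted p under 0.01). Each value is the log2 difference in COLO858 minus that in MMACSF. At 24 h these were ACTB at 1.24, MYL6 at 1.22, MYL9 at 2.02, ACTA2 at -1.55 and MYH10 at -1.19. At 48 h they were ACTB at 2.23, MYL6 at 2.59, MYL9 at 2.84, MYL12A at 0.82, TPM1 at 1.47, TAGLN2 at 1.16, CALD1 at 1.77 and VCL at 1.75. For the step from 24 to 48 h they were ACTB at 1.00, MYL6 at 1.37, TPM1 at 1.28 and TAGLN2 at 0.98. The MYL9 values compare COLO858 with a line in which the gene was listed at 0 in 5 of 6 libraries.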

How the results depend on the processing

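The 45 calls of members kept their direction in every alternative in which they were tested. With the replicate block the called members came to 24 (24 h), 25 (48 h) and 28 (48 against 24 h) in COLO858, 15 and 18 at 24 and 48 h in MMACSF, and 14, 26 and 25 for the line difference at 24 h, at 48 h and for the step, in place of 3, 10 and 2, of 5 and 7, and of 5, 9 and 4. Over all genes tested the block raised the calls from 1202 to 5549 at 48 h in COLO858, from 1113 to 3790 in MMACSF and from 1017 to 3434 for the line difference. Median-ratio rescaling gave 5 members at 24 h in COLO858 and 7 for the line difference of the step. Over all genes the calls went from 1247 to 1516 and from 403 to 505. Without small RNA genes 7 members were called at 24 h in COLO858 and 7 from 24 to 48 h, where all genes went from 1247 to 1735 and from 175 to 348. With only the groups compared in the model, 6 were called at 48 h and 0 from 24 to 48 h in COLO858. Over all genes these calls went from 1202 to 493 and from 175 to 35. Between lines, 0 were called at 24 h and 1 for the step, where all genes went from 505 to 173 and from 403 to 196. Without a minimum FPKM, and without a trend, 1 member was called from 24 to 48 h in COLO858, beside 86 and 188 of all genes. Leaving out each library in turn lost most calls within a line, among the members as over all genes tested. Between lines, calls were lost too, in the members and over all genes. Fewer samples were fitted there, with the lone library assumed to vary like the other groups, and the cause of the other shifts was not tested. Of 45 calls, 3 were lost with 0.1 FPKM added, 4 with no minimum, 8 with rescaling and 20 with only the groups compared. With a minimum of 10 FPKM, 0 were lost of those still tested, and the calls of CNN1 and TAGLN were not tested. Depth is not known, so its limit on low genes such as TAGLN, CNN1 and ACTG2 cannot be given.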
